A study of Mus musculus with 18 samples.

Results

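Secreted proteins of macrophages, 9 in number, are described here through their genes: the cytokine genes Tnf, Il1b, Il6, Il10, Il15, Il27 and Lif, the growth factor gene Csf1, and Il1rn, the gene of the IL-1 receptor antagonist. They were chosen by name, and every row of the authors' deposited table that carries 1 of these names and compares 2 of the 6 labelled groups was taken. All 9 genes were found, among 5455 named genes with a row between these groups, and they account for 72 of 34824 rows and 12 entries (an entry is a transcript or locus identifier of the table).

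The cells were RAW264.7, a mouse macrophage-like line, in 6 groups of 3 samples. Construct cells, labelled p2080, carry the lentiviral pINDUCER20-mCITED1 construct, in which mouse CITED1, a co-regulator of transcription, is switched on by doxycycline. They were given doxycycline (100 ng/mL) and interferon-gamma (200 U/mL), interferon-gamma only, doxycycline only, or neither. Parental RAW cells without the construct were given doxycycline or nothing. The labels do not say whether the construct cells are 1 clone or a pool, how long the treatments lasted, or whether the 3 samples are separate cultures. Interferon-gamma was not given to parental cells in the samples used here. In interferon-treated cells an action of doxycycline itself and an action of induced CITED1 therefore cannot be told apart.

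Each row of the table gives a fold, a summed FPKM (fragments per length of transcript and size of library, added over both groups) and a q-value (an adjusted p-value), without the individual samples. No SD and no sequencing depth can be given, and every call is the authors' Cuffdiff call between groups of 3. A called gene has at least a 2-fold difference and a q below 0.05 there, so a gene without a row is not shown to be unchanged, and a gene at 0 in a group cannot have a row with that group. Levels below are the FPKM of each group as solved from those values, called rebuilt FPKM. For the members, levels rebuilt from different rows differed by at most 0.374%. The rebuilt level of Cited1 was 86.7 FPKM with both treatments, 11.5 with interferon-gamma, 168 with doxycycline and 0.703 in untreated construct cells. Of 9 macrophage markers, Adgre1, Itgam, Cd68 and Fcgr1 have rows; none of 13 T cell, B cell, fibroblast and epithelial markers has a row, which does not show whether those genes were expressed.

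Macrophages release tumour necrosis factor (Tnf), IL-1 beta (Il1b) and IL-6 (Il6) as early signals of inflammation. IL-1 beta acts through the IL-1 receptor, and the product of Il1rn occupies the same receptor without activating it. IL-10 restrains macrophage activation, IL-15 sustains natural killer and memory T cells, and Il27 encodes a subunit of IL-27, which pairs with the product of Ebi3. LIF signals through the gp130 chain shared with IL-6, and Csf1 encodes the growth factor on which macrophages depend for survival. Interferon-gamma primes macrophages for many of these genes, and many of their mRNAs are short-lived.

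Upstream sequences are shown for Il6 and Csf1, which were higher with doxycycline on top of interferon-gamma, for Tnf, which was not called there, and for Il1rn, which has 2 entries with separate starts. The sequences are the 250 bases before the start of each gene in RefSeq, 5′ to 3′ on the gene's strand. Capitals mark GGG and CC with any 5 bases between them, on either strand, a loose pattern that contains many sites bound by NF-kB; neighbouring matches on opposite strands can overlap and are then joined. The genome build of the authors is not given in the sources used here.
Il6 (GRCm38.p6 chr5:30012864-30013113, plus strand): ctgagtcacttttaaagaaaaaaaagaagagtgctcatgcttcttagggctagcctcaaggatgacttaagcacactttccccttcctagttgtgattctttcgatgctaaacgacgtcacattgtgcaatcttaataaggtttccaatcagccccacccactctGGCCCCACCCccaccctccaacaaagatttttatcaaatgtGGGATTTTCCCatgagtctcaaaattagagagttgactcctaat
Csf1 (GRCm38.p6 chr3:107760470-107760719, minus strand): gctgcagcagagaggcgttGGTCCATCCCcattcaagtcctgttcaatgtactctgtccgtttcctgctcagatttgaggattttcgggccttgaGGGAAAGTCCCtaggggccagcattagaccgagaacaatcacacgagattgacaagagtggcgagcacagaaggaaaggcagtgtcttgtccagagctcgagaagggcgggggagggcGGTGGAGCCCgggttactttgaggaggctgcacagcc
Tnf (GRCm38.p6 chr17:35202008-35202257, minus strand): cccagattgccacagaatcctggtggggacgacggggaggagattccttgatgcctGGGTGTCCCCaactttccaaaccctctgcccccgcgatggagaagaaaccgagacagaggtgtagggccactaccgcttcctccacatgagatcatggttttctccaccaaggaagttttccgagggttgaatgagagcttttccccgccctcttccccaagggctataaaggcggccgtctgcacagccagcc
Il1rn, upstream start (GRCm38.p6 chr2:24336610-24336859, plus strand): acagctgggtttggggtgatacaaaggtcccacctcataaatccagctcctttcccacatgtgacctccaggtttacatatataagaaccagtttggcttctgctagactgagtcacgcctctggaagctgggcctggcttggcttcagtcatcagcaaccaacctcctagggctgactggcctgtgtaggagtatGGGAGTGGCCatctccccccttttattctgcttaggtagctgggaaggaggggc
Il1rn, downstream start (GRCm38.p6 chr2:24345041-24345290, plus strand): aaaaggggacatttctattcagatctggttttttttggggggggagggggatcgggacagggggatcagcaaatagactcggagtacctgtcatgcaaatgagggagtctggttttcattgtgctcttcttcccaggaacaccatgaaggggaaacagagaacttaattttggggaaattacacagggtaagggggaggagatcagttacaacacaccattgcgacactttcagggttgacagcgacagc

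The set of RefSeq promoters used here held 6 of the 9 members, in 8 windows, and had no window for Il10, Il15 and Il27. This pattern was found in 6 of the 8 windows, which belong to 5 of the 6 members, while 45.8% of all 32851 upstream windows of the same length hold it. Il1b has no match. A second RefSeq window at the downstream Il1rn start, 61 bases from the entry and overlapping the one shown, holds a match 51 to 42 bases upstream, GGGTTTTTCC. In Il6 the matches 44 to 35 and 43 to 34 bases upstream overlap on opposite strands and together read GGGATTTTCCC. In Csf1 an overlapping pair lies between 155 and 145 bases upstream. A pair of GAAA with any 2 bases between, as in interferon-stimulated response elements, was found in 0 of the 6 and in 2.98% of all windows. A match is a description of the letters only, and a missing match says only that the pattern is not in this window. The RefSeq start of Lif lies 9527 bases from that of the Lif entry in the table, so its window is not shown.

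Many cytokine mRNAs carry AU-rich elements in the 3′ UTR, where proteins such as tristetraprolin bind and speed decay. The stretch of 30 bases with most copies of ATTTA is shown for the 4 members in which it holds at least 3, with the copies in capitals, read along the GENCODE M21 transcript and written as DNA.
Tnf: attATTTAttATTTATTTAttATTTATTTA
Il1b: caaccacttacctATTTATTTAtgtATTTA
Il27: ccagatATTTAtttcttggatATTTATTTA
Lif: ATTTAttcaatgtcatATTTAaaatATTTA

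The leading entry of a member (the one with the highest summed FPKM) had at least 1 ATTTA in the 3′ UTR for 8 of the 9 members, all but Il1rn, and so had 67% of the 5925 listed transcripts with a 3′ UTR. At least 3 copies were present in 7 of 9, against 34.1% of those transcripts. The overlapping pair ATTTATTTA was present in Tnf, Il1b and Il27, against 5.54% of listed transcripts. Tnf had 8 copies of ATTTA in 764 bases of 3′ UTR, Il6 had 6 in 427 bases and Il27 had 5 in 285 bases. Il10 had 6 in 706 bases and Il1b 4 in 459 bases. Lif had 7 in 3180 bases and Csf1 4 in 2111 bases, where the median 3′ UTR of the listed transcripts was 960 bases. A longer 3′ UTR can hold more copies, and these shares are not adjusted for length. Il1rn had 0 in 1306 bases. This search was added after the data were examined.

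With interferon-gamma and no doxycycline, 4 of the 9 members were called higher in construct cells, Tnf, Il1rn, Il15 and Lif, and 0 lower. The other 5 have no row here and no level in untreated construct cells, so their response cannot be told. Among them Il27 stood at 113 rebuilt FPKM with interferon-gamma. In this comparison 25.7% of all named genes with a row anywhere were called higher and 24.5% lower. Tnf stood at 189 rebuilt FPKM with interferon-gamma and at 15.4 in untreated construct cells. Il1rn stood at 205 rebuilt FPKM with interferon-gamma and at 30.9 untreated. Il15 stood at 23.1 rebuilt FPKM with interferon-gamma and at 1.67 untreated. These 3 genes were detectable in untreated cells, whereas Lif was close to 0 there, at 2.66 rebuilt FPKM with interferon-gamma and 0.0286 untreated. The folds in the authors' deposited table were 93.0 for Lif, 13.9 for Il15, 12.3 for Tnf and 6.63 for Il1rn. The order turns with 1 FPKM added to each level, where Lif has the smallest log2 ratio, 1.83, against 3.53 for Tnf, 3.18 for Il15 and 2.69 for Il1rn. By deposited fold they ranked 22, 110, 125 and 237 among 1414 genes with a higher entry, and their median fold was 13.1, against 2.90 over all of these genes. Over all entries with a level in both groups, at least 1 FPKM in one, the median log2 ratio was 0.65, and relative to it the members' log2 ratios ran from 2.08 for Il1rn to 5.89 for Lif. All of these entries were called in some pair of groups. Only 52.5% of them had a ratio above 0, so this median does not measure a shift shared by all genes. The q-value of Lif in the authors' deposited table was 0.0313 here, so Lif is lost at a q of 0.01. The q of the other 3 was 3.87e-04, the smallest among the rows used. As 71.81% of these rows, and 57 of the 72 member rows, share that q, it does not set a gene apart. Dendritic cell markers moved with these genes: 4 of 5 were called higher, and Flt3 has no row. Clec9a stood at 80.4 rebuilt FPKM with interferon-gamma and 0.0437 untreated. In the authors' deposited table the q was 0.0185 for Clec9a and 0.0308 for Zbtb46, above 0.01, and below 0.01 for Itgax and Xcr1. Zbtb46 was below 1 FPKM on both sides, at 0.577 with interferon-gamma and 0.183 untreated. Of 9 macrophage markers Fcgr1 was higher and 0 were lower. The part of these markers in the result was not tested, and in bulk samples more cells with a transcript and more transcript per cell cannot be told apart.

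The same 4 members were called higher, and 0 lower, when interferon-gamma was added to doxycycline, a comparison that shares no group with the previous one. The other 5 again have no row, so their response cannot be told. Here 33.7% of the named genes were called higher and 34.0% lower. Tnf stood at 253 rebuilt FPKM with both treatments and at 13.3 with doxycycline alone. Il1rn stood at 467 rebuilt FPKM with both treatments and at 20.5 with doxycycline alone. Il15 stood at 53.7 rebuilt FPKM with both and at 1.57 with doxycycline alone, and Lif at 2.46 with both and 0.0377 with doxycycline alone. Folds in the authors' deposited table were 65.2 for Lif, 34.2 for Il15, 22.8 for Il1rn and 19.0 for Tnf, with a median of 28.5 against 3.15 over all 1845 genes with a higher entry. With 1 FPKM added to each level Lif is again the smallest, at a log2 ratio of 1.74, against 4.44 for Il1rn, 4.41 for Il15 and 4.15 for Tnf. The median log2 ratio over all entries was 1.02 here, and relative to it the members ran from 3.23 for Tnf to 5.01 for Lif. Only 52.7% of these entries had a ratio above 0, so this median, too, does not measure a shift shared by all genes. Of the macrophage markers Fcgr1 was higher here and 3 were lower, Cd68 at 255 rebuilt FPKM with both treatments and 661 with doxycycline alone, Adgre1 and Itgam. Of the dendritic cell markers Itgax and Xcr1 were higher, Xcr1 at a q of 0.0126 in the authors' deposited table. The part of these markers was not tested. The q-value of Lif in the authors' deposited table was 0.0102, again above 0.01.

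**Figure D1:**
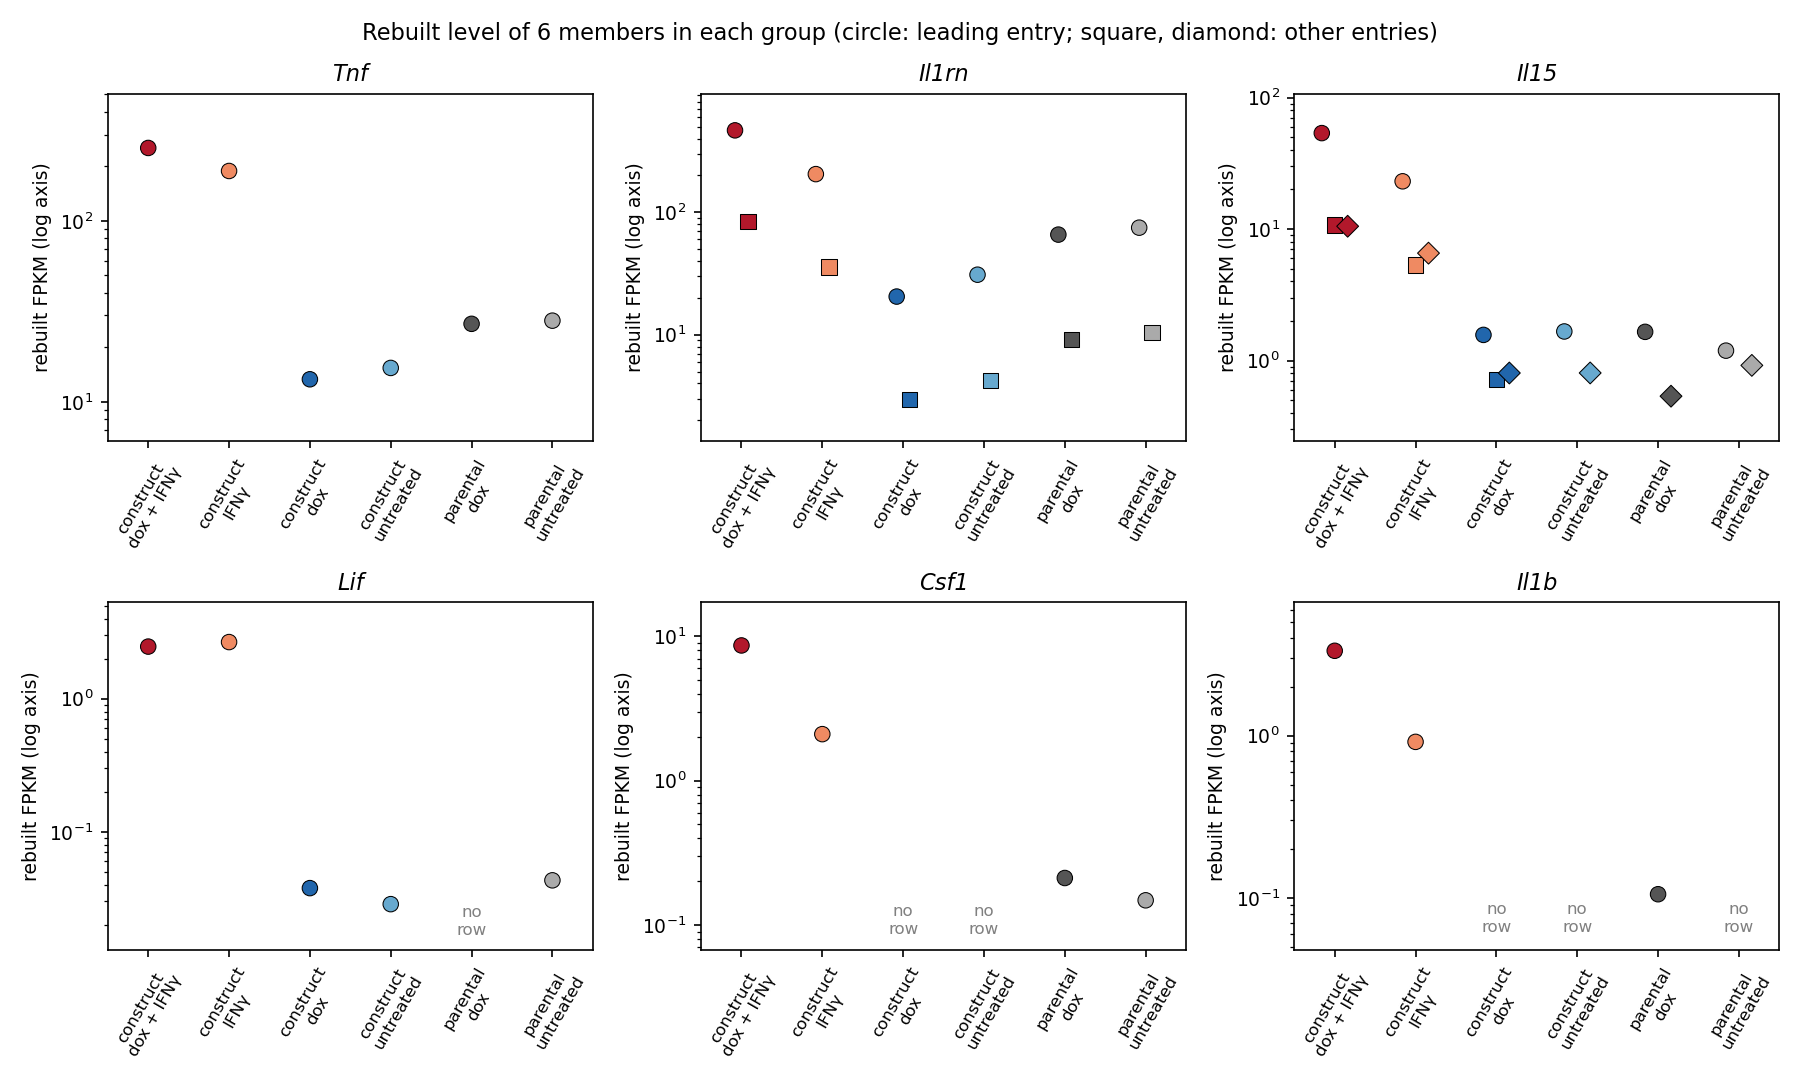
Rebuilt FPKM (log axis) of Tnf, Il1rn, Il15, Lif, Csf1 and Il1b in the 6 groups, each of 3 samples; a point is 1 entry, circles are leading entries, squares and diamonds are other entries, "no row" marks a group with no level, and there are no error bars because the table has no values per sample. Within each entry of all 6 panels, both interferon-treated groups lie above every other group with a level. Il1rn is the member with the clearest step between unstimulated construct cells (20.5 and 30.9, leading entry) and parental cells (65.7 and 74.8).

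The pairs that differ in both treatments, which share groups with those above, also called Tnf, Il1rn, Il15 and Lif. With both treatments against untreated construct cells 4 were higher, where 33.8% of named genes were, and 0 lower, where 34.2% were. With interferon-gamma alone against doxycycline alone 4 were higher and 0 lower, where 25.7% and 24.9% of named genes were.

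By rebuilt levels, the fold with interferon-gamma differed between construct cells with and without doxycycline. Without doxycycline Cited1 itself stood at 11.5 rebuilt FPKM with interferon-gamma and 0.703 untreated. With doxycycline it stood at 86.7 with interferon-gamma and 168 without, and its part in these folds was not tested. For Il1rn the ratio of rebuilt levels was 22.8 with doxycycline and 6.63 without, a 3.44-fold difference between the folds. For the leading entry of Il15 the ratio was 34.2 with doxycycline and 13.9 without, 2.47-fold apart. For its entry ENSMUST00000034148 the ratio was 13.1 with doxycycline and 8.14 without, 1.60-fold apart. For Tnf it was 19.0 with doxycycline and 12.3 without, 1.55-fold apart, and for Lif it was lower with doxycycline, at 65.2, than without, at 93.1. In Il1rn both sides of the ratio differed: the level with interferon-gamma was 2.28-fold higher with doxycycline and the unstimulated level was 0.663 times that without doxycycline, a difference with no row. No test of these differences can be made without values per sample.

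**Figure D2:**
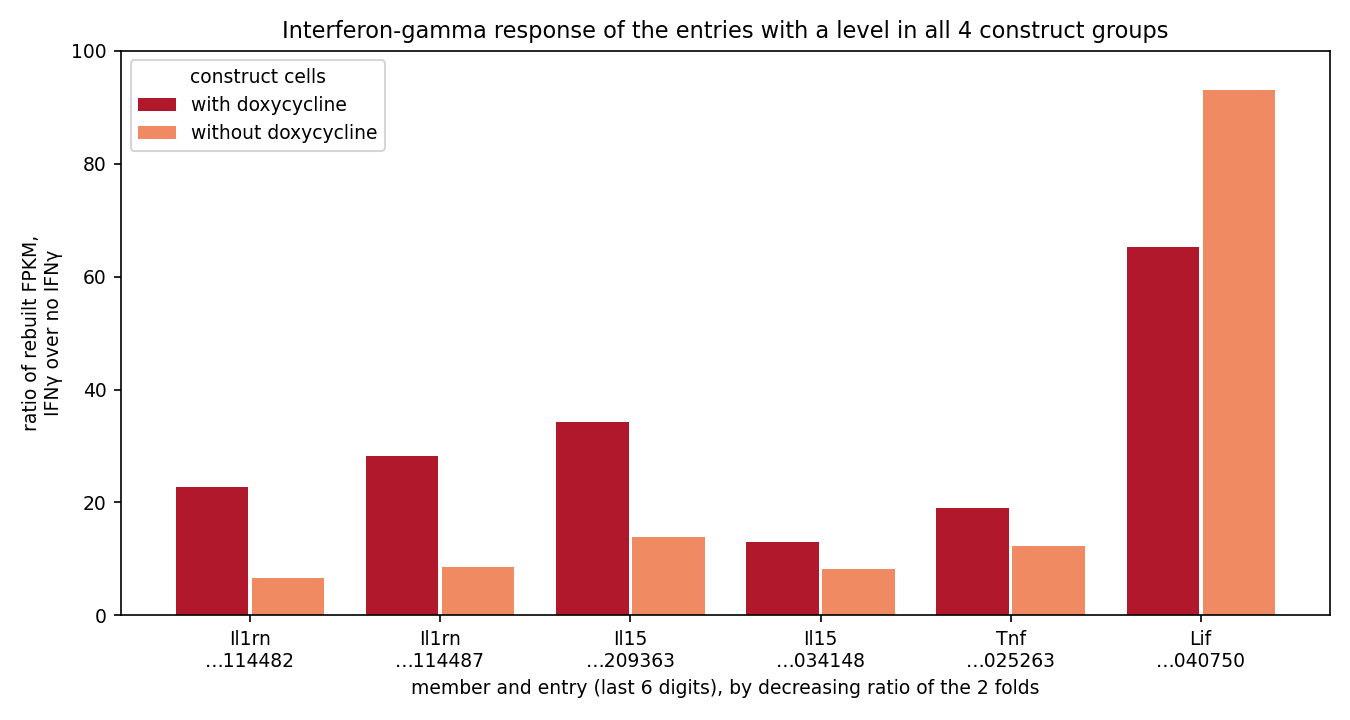
Bars give the ratio of rebuilt FPKM with interferon-gamma over that without, in construct cells with doxycycline (left) and without (right), for the 6 entries with a level in all 4 construct groups. The ratio with doxycycline is the higher of the pair for both Il1rn entries, both Il15 entries and Tnf, and the lower for Lif (65.2 with doxycycline and 93.1 without).

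In interferon-treated construct cells, 7 of the 9 members were called higher with doxycycline than without it, Il10, Csf1, Il1b, Il6, Il27, Il15 and Il1rn, and 0 lower. Of all named genes with a row, 6.84% were called higher and 6.34% lower in this comparison. Il6, Il10 and Il27 have no other row, so they are listed only through this call. The members were also chosen with earlier results of these data known, so the count of 7 is not independent support. Il10, the inhibitory cytokine, stood at 1.82 rebuilt FPKM with both treatments and at 0.223 with interferon-gamma alone. Csf1, the macrophage growth factor, stood at 8.64 with both and at 2.10 with interferon-gamma alone. By ratio these differed most, but both are low: with 1 FPKM added to each level, Il10 is at a log2 ratio of 1.20, under Csf1 at 1.64 and Il27 at 1.37. Il1b stood at 3.34 rebuilt FPKM with both treatments and at 0.917 with interferon-gamma alone. Il6 stood at 3.96 with both and at 1.37 with interferon-gamma alone. The abundant Il27 stood at 292 rebuilt FPKM with both treatments and at 113 with interferon-gamma alone, and Il1rn and Il15, at the levels given above, had the smallest ratios of the 7 as deposited.

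Folds in the authors' deposited table were 8.17 for Il10, 4.12 for Csf1, 3.64 for Il1b, 2.89 for Il6, 2.59 for Il27, 2.33 for Il15 and 2.28 for Il1rn. Il10 ranked 6 and Csf1 39 among the 373 genes called higher, while Il1rn ranked 235. With 1 FPKM added to each level, Il10 and Il1rn are alike at log2 ratios of 1.20 and 1.19, so that difference in rank rests on the 0.223 FPKM of Il10 with interferon-gamma alone. The members' median fold of 2.89 stood beside 2.46 over all 373. The q-values in the authors' deposited table were 0.00272 for Il10, 7.47e-04 for Il6 and 3.87e-04 for the leading entries of the other 5. Tnf and Lif have no row here: Tnf stood at 253 rebuilt FPKM with both treatments and 189 with interferon-gamma alone, a ratio of 1.34, and Lif at 2.46 with both treatments and 2.66 with interferon-gamma alone, a ratio of 0.925. Both ratios are below the 2-fold limit of the table. This comparison shares the group given both treatments with one of the interferon comparisons above and the group given interferon-gamma alone with the other. Of 5 dendritic cell markers, Xcr1 (17.7 rebuilt FPKM with both treatments, 6.61 with interferon-gamma alone) and Itgax (58.6 with both, 24.2 with interferon-gamma alone) were also higher, as was the macrophage marker Fcgr1 (274 with both, 87.5 with interferon-gamma alone). Zbtb46, Clec9a and Flt3, also of that list, have no row here, and the part of these genes in the result was not tested.

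**Figure D3:**
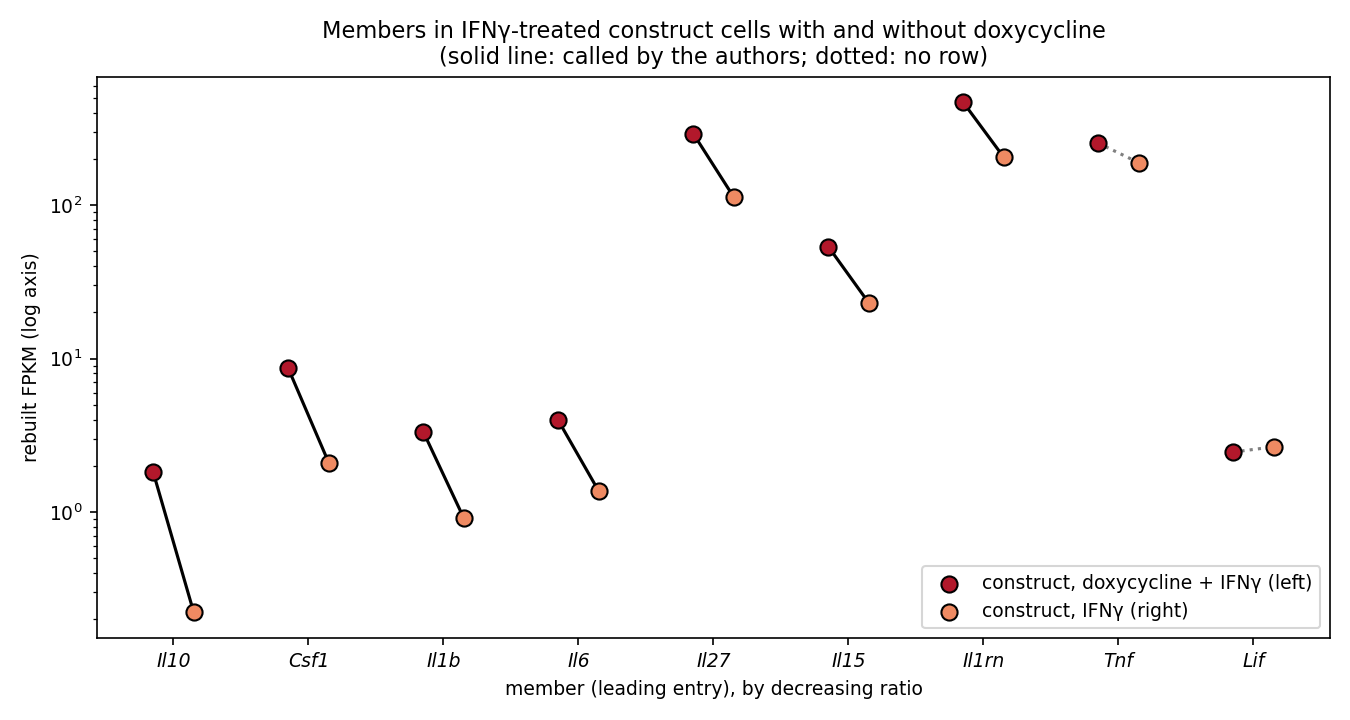
Rebuilt FPKM (log axis) of the leading entry of each of the 9 members in construct cells given both treatments (left point) and interferon-gamma alone (right point), each group of 3 samples without error bars. Solid lines join the 7 members called by the authors, from Il10 (1.82 and 0.223) to Il1rn (467 and 205); dotted lines join Tnf and Lif, which have no row.

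**Figure D4:**
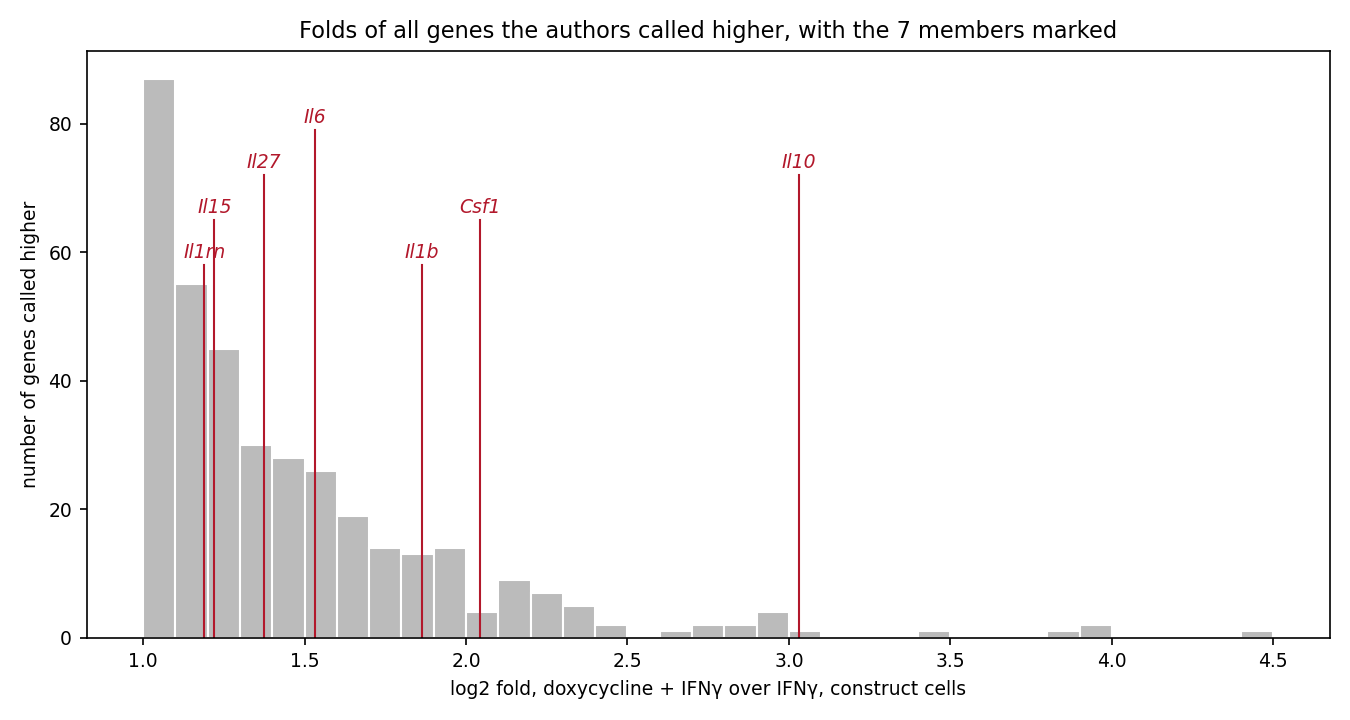
Histogram of the log2 fold, both treatments over interferon-gamma alone, taken from the authors' deposited table for the 373 genes called higher in construct cells, with the 7 members marked by lines whose height has no meaning. Il10 (log2 fold 3.03) lies in the upper tail and Il1rn (1.19) among the smaller folds.

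The order of abundance in cells given both treatments was Il1rn, Il27, Tnf, Il15, Csf1, Il6, Il1b, Lif and Il10, on the FPKM scale, which is per length. With interferon-gamma alone the order was Il1rn, Tnf, Il27, Il15, Lif, Csf1, Il6, Il1b and Il10. Without an error on each level it cannot be said which neighbours in these orders differ. The absolute levels also rest on reading the deposited total as the sum of both groups, which the ratios do not.

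The members Il6, Il10 and Il27 have 1 row each, the one between both treatments and interferon-gamma alone. Their levels in the unstimulated construct cells and in parental cells are therefore not known from the table, although Il27 was among the most abundant members with interferon-gamma. Csf1 has 5 rows: beside the one above, both interferon-treated groups were set against both parental groups. It stood at 8.64 rebuilt FPKM in construct cells with both treatments and at 2.10 with interferon-gamma alone, and at 0.211 in parental cells with doxycycline and 0.148 in untreated parental cells. In the authors' deposited table these differences ran from 9.93-fold to 58.4-fold. Il1b has 3 rows, of which 2 set the interferon-treated groups against parental cells with doxycycline, where it stood at 0.105 rebuilt FPKM. Those pairs differ in cell line as well as treatment, so the 2 cannot be told apart there.

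**Figure D5:**
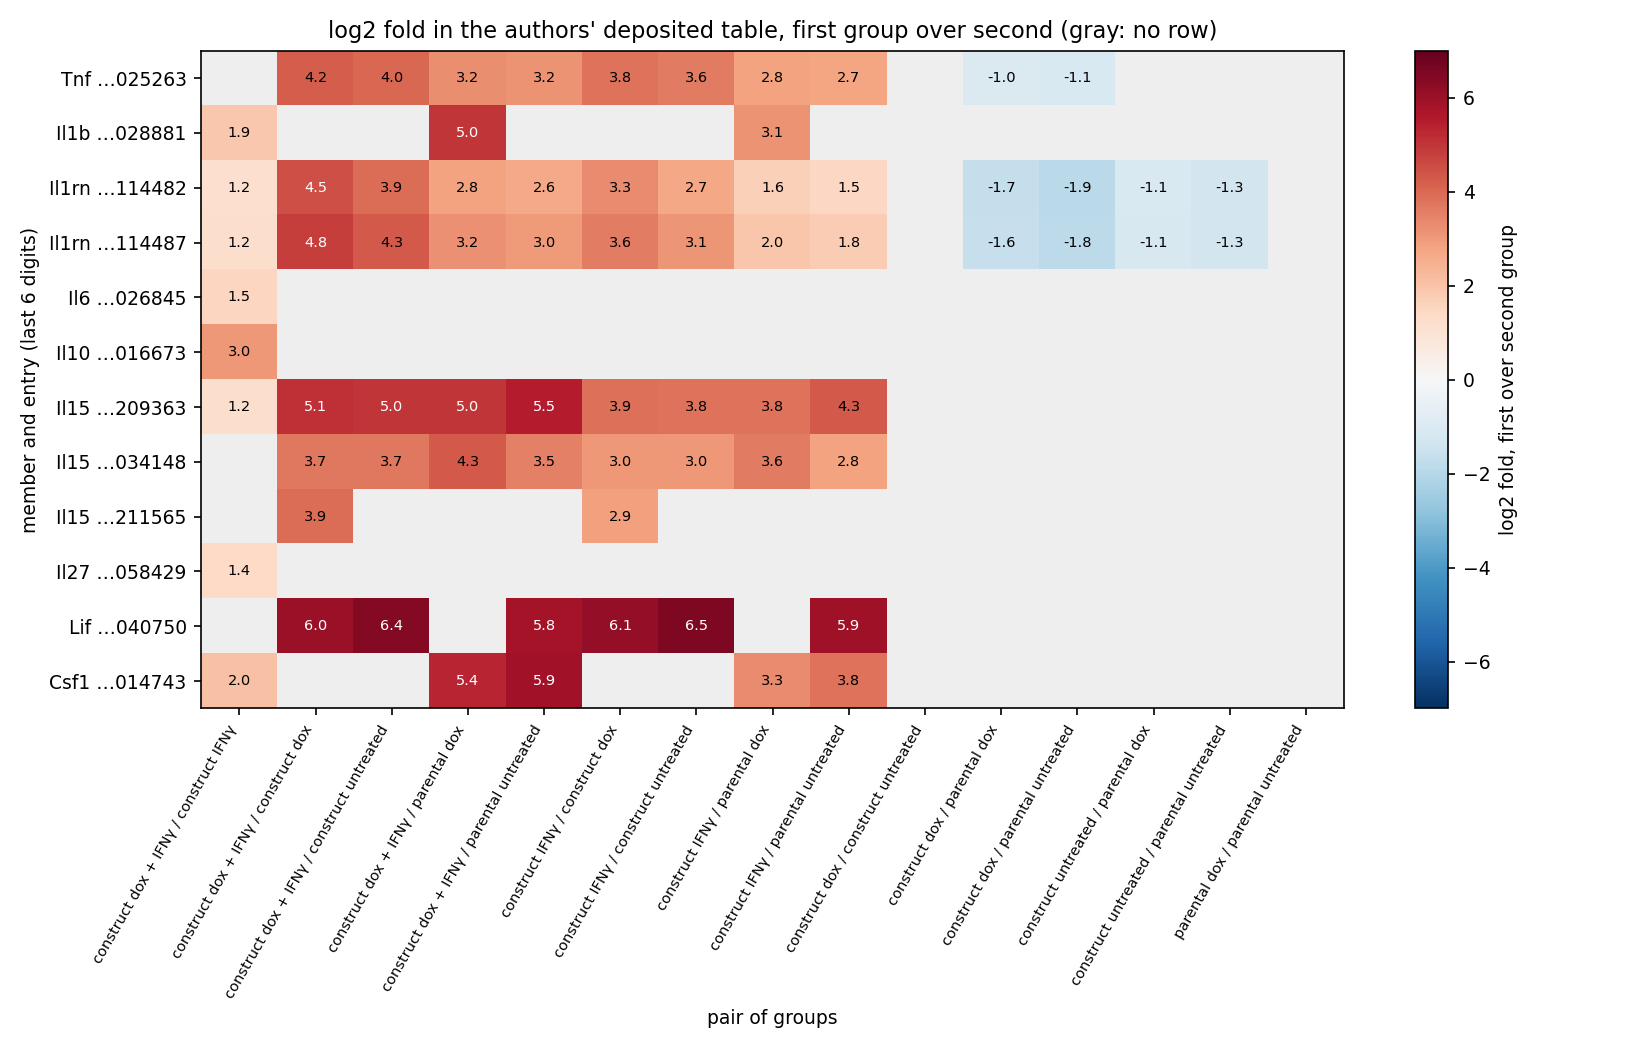
Log2 fold in the authors' deposited table for the 12 member entries (rows) in the 15 pairs of groups (columns), first group over second; red is higher and blue lower in the first group, and gray marks a pair with no row. Il1rn fills 13 of the 15 pairs with both entries, Il6, Il10 and Il27 only 1, and blue cells occur only for Il1rn and Tnf, in pairs of unstimulated construct with parental cells.

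Unstimulated construct cells had less Il1rn than parental cells. In untreated cells Il1rn stood at 30.9 rebuilt FPKM in construct cells and at 74.8 in parental cells, 2.42-fold lower in the authors' deposited table with a q of 3.87e-04. With doxycycline in both lines it stood at 20.5 rebuilt FPKM in construct cells and at 65.7 in parental cells, 3.21-fold lower in the authors' deposited table at the same q. Il1rn was the 1 member called lower without doxycycline, where 2.77% of named genes were lower, and 0 members were higher, where 1.72% were. With doxycycline 2 members were lower, where 3.17% of named genes were, and 0 were higher, where 2.44% were. The second was Tnf, at 13.3 rebuilt FPKM in construct cells and 27.0 in parental cells, 2.03-fold lower in the authors' deposited table at a q of 3.87e-04. Once levels were rescaled to a median log2 ratio of 0, Tnf was just under the 2-fold limit, at a log2 ratio of -0.99. With 1 FPKM added to each level instead, that ratio was -0.97. In untreated cells Tnf stood at 15.4 in construct and 28.1 in parental cells, a ratio of 0.548 with no row. The macrophage marker Adgre1 was also lower, at 12.2 rebuilt FPKM in untreated construct cells and 28.6 in untreated parental cells, and at 13.9 in construct and 32.6 in parental cells with doxycycline; its part in the result was not tested. Itgax, a dendritic cell marker, was higher in construct cells with doxycycline, at 3.73 rebuilt FPKM, than in parental cells with doxycycline, at 1.54.

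Against parental cells the interferon-treated construct cells were higher for Il1rn too, by 2.74-fold (interferon-gamma alone against untreated parental) to 7.11-fold (both treatments against parental cells with doxycycline) in the authors' deposited table for the leading entry. Each set of interferon-treated construct cells had 5 members higher and 0 lower against each parental group, Tnf, Il1rn, Il15 and Csf1 with Il1b or Lif. With both treatments, 33.0% of named genes were higher and 34.3% lower against parental cells with doxycycline, and 34.0% higher and 35.3% lower against untreated parental cells. With interferon-gamma alone, 26.1% were higher and 26.6% lower against parental cells with doxycycline, and 26.4% higher and 26.5% lower against untreated parental cells.

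The remaining pairs of unstimulated construct with parental cells differ in doxycycline too. With doxycycline against untreated parental cells Il1rn and Tnf were lower and 0 members higher, where 3.98% and 2.68% of named genes were. Without doxycycline against parental cells with it Il1rn was lower and 0 members were higher, where 2.29% and 1.80% of named genes were.

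Doxycycline without interferon-gamma was followed by 0 called members in construct cells, where Cuffdiff called 0.202% of named genes higher and 0.202% lower, and by 0 in parental cells, where it called 0.110% higher and 0.788% lower. The table gives no unadjusted p-values and no result of another tool. Rebuilt levels in construct cells with and without doxycycline were 13.3 and 15.4 FPKM for Tnf, 20.5 and 30.9 for Il1rn, 1.57 and 1.67 for Il15, and 0.0377 and 0.0286 for Lif. In parental cells with and without doxycycline they were 27.0 and 28.1 FPKM for Tnf, 65.7 and 74.8 for Il1rn, 1.66 and 1.19 for Il15, and 0.211 and 0.148 for Csf1. For the other members no level could be rebuilt on both sides.

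Il1rn is listed under 2 entries with different starts. ENSMUST00000114482, the leading one, begins 19 bases from a RefSeq start that lies 8431 bases downstream of the start next to ENSMUST00000114487, both shown above. Both entries were called in the same 13 pairs of groups and in the same directions. The upstream entry stood at 83.8 rebuilt FPKM with both treatments, 35.8 with interferon-gamma, 2.97 with doxycycline, 4.21 in untreated construct cells, 9.17 in parental cells with doxycycline and 10.4 in untreated parental cells. As a share of the leading entry's level this was 17.95% with both treatments and 17.5% with interferon-gamma, and between 13.6% and 14.5% in the other 4 groups. The entries share exons, so how reads were divided between them is uncertain and so are these shares.

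Il15 is listed under 3 entries. The leading one, ENSMUST00000209363, is protein coding in GENCODE M21, as is ENSMUST00000034148, whereas ENSMUST00000211565 is annotated as a target of nonsense-mediated decay. ENSMUST00000034148 stood at 10.5 rebuilt FPKM with both treatments, 6.56 with interferon-gamma, 0.805 with doxycycline and 0.806 in untreated construct cells, and at 0.537 in parental cells with doxycycline and 0.920 in untreated parental cells. It has no row for both treatments against interferon-gamma alone, where its ratio was 1.60, while the leading entry did at 2.33-fold in the authors' deposited table. As a share of the leading entry ENSMUST00000034148 made up 19.6% with both treatments and 28.4% with interferon-gamma, against 51.3% with doxycycline and 48.4% untreated. In parental cells the share was 32.4% with doxycycline and 77.3% untreated, so it ranged widely without interferon-gamma. ENSMUST00000211565 stood at 10.8 rebuilt FPKM with both treatments, 5.32 with interferon-gamma and 0.720 with doxycycline, and no level was rebuilt for untreated construct cells. Its ratio of 2.02 between both treatments and interferon-gamma alone has no row. These entries overlap as well, and the same uncertainty applies.

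The genes whose levels ran most like a member's over the 4 construct groups were sought among 3231 entries, by the root mean square difference of centred log2 levels, as a description. Nearest to Tnf was Socs3, a feedback inhibitor of cytokine receptors, at 0.0369, with 64.9 rebuilt FPKM with both treatments, 48.8 with interferon-gamma, 3.25 with doxycycline and 3.78 untreated. Tnfsf18, of the same cytokine family as Tnf, and Stx11 followed at 0.0450 and 0.0970. Nearest to Il15 were C4b, a complement component, at 0.102, Otud1, a deubiquitinase, at 0.103 and Herc6 at 0.176. Nearest to Il1rn were Tbc1d9 at 0.158, Fgfbp3 at 0.174 and Pmepa1 at 0.200. Nearest to Lif were Entpd1, an enzyme that breaks down extracellular ATP, at 0.194, Cd274 at 0.316 and Calhm6 at 0.319. For the other members no level was available in all 4 groups.

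Receptor genes of these and related cytokines were called with interferon-gamma. Relative to the median log2 ratios of 0.65 and 1.02 given above, no gene of this or the following lists changed direction. Fewer were then at least 2-fold higher: 4 of the 5 receptor genes in each of the comparisons below. Those medians do not measure a shift shared by all genes, so falling under 2-fold relative to them does not undo a call. Of 18 receptor genes 8 have a row anywhere. For interferon-gamma alone against untreated, and for both treatments against doxycycline, 5 were higher and 1 lower in each. Of all named genes with a row, 25.7% were higher and 24.5% lower in the first comparison, and 33.7% and 34.0% in the second. Between both treatments and interferon-gamma alone 0 receptor genes were called, where 6.84% of named genes were higher and 6.34% lower. Il12rb1, a chain of the IL-12 receptor, stood at 39.6 rebuilt FPKM with interferon-gamma and 0.323 untreated. Il10ra, the ligand-binding chain for IL-10, stood at 43.5 with interferon-gamma and 9.11 untreated, and at 84.2 with both treatments and 10.1 with doxycycline. Il15ra, which presents IL-15 to neighbouring cells, stood at 2.22 with interferon-gamma and 0.264 untreated for one entry, and at 3.16 with both treatments and 0.389 with doxycycline for another; reads of overlapping entries can be shared, so these values are uncertain. The lower ones, named after their values were seen, were Tnfrsf1b with interferon-gamma alone (12.5 rebuilt FPKM, untreated 25.0) and Il6st, the gp130 gene, with both treatments (4.59, doxycycline 11.1).

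Genes for maturation and release of these cytokines were called higher with interferon-gamma: 5 of 9 have a row and all 5 were higher in both of these comparisons, with 0 called between both treatments and interferon-gamma alone. Of all named genes with a row, 25.7% and 33.7% were higher in the interferon-gamma comparisons, and 6.84% in the last. Relative to the median ratios 3 of the 5, Casp1, Nlrp3 and Rhbdf2, stayed at least 2-fold higher in each. Casp1, whose product cleaves the IL-1 beta precursor, stood at 124 rebuilt FPKM with interferon-gamma and 23.8 untreated, and at 232 with both treatments and 25.8 with doxycycline. Nlrp3, the inflammasome sensor, stood at 56.3 with interferon-gamma and 11.5 untreated. Rhbdf2, needed for the protease that sheds TNF, stood at 80.8 with interferon-gamma and 18.7 untreated.

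A list of genes for mRNA decay and stability, which also holds Tnfaip3, was called in both directions. Of its 12 genes 9 have a row. With interferon-gamma alone 5 were higher and 2 lower, and with both treatments against doxycycline 6 were higher and 0 lower. Of all named genes with a row, 25.7% were higher and 24.5% lower in the first comparison, and 33.7% and 34.0% in the second. Relative to the median ratios, 3 were at least 2-fold higher in each, Zfp36, Arid5a and Tnfaip3. Zfp36, the gene of tristetraprolin, which binds AU-rich elements such as those of Tnf shown above, stood at 140 rebuilt FPKM with interferon-gamma and 11.2 untreated, and at 208 with both treatments and 12.3 with doxycycline. Tnfaip3, an inhibitor of NF-kB signalling, stood at 29.3 with interferon-gamma and 5.59 untreated. Arid5a, which in mouse stabilises Il6 mRNA, stood at 5.05 with interferon-gamma and 0.310 untreated. Arid5a was the 1 gene of this list called between both treatments and interferon-gamma alone, at 11.5 rebuilt FPKM with both and 5.05 with interferon-gamma alone, 2.27-fold higher in the authors' deposited table with a q of 3.87e-04. In that comparison 6.84% of all named genes with a row were higher. The 2 lower ones with interferon-gamma alone, named after their values were seen, were Hnrnpd (17.2 rebuilt FPKM, untreated 43.2) and Zfp36l2 (41.8, untreated 86.5).

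Of 21 other interleukins and growth factors 7 have a row. Of all named genes with a row, 25.7% were higher and 24.5% lower with interferon-gamma alone, and 33.7% and 34.0% with both treatments against doxycycline. Between both treatments and interferon-gamma alone 6.84% were higher. The same shares apply to the transcription factors below. With interferon-gamma alone 2 were higher and 0 lower, Ltb at 32.5 rebuilt FPKM and 11.3 untreated, and Osm at 4.22 and 1.54 untreated. With both treatments against doxycycline 2 were higher and 1 lower: Ltb at 49.7 with both and 13.8 with doxycycline, Il18 at 16.7 with both and 6.50 with doxycycline, and Il16 at 1.15 with both and 3.01 with doxycycline. Relative to the median ratios 0 of these higher calls stayed at 2-fold. With interferon-gamma alone the log2 ratios were 0.88 for Ltb and 0.81 for Osm, against 1.53 and 1.45 as deposited. With both treatments against doxycycline they were 0.83 for Ltb and 0.35 for Il18, against 1.84 and 1.36 as deposited. This does not undo the calls, since the medians do not measure a shift shared by all genes. Tnfsf10, the gene of the death ligand TRAIL, was the 1 called between both treatments and interferon-gamma alone, at 7.51 rebuilt FPKM with both and 1.69 with interferon-gamma alone. Ebi3, the partner of Il27, has rows only with the group given both treatments, where it stood at 49.7 rebuilt FPKM, against 21.3 in untreated construct cells. Its log2 ratio was 1.22 as deposited and 0.20 relative to the median there. Of 9 transcription factors of cytokine genes 4 have a row: 3 were higher with interferon-gamma alone and 4 with both treatments against doxycycline, 0 were lower in either and 0 were called between both treatments and interferon-gamma alone. Relative to the median ratios Bcl3 and Atf3 stayed at least 2-fold higher in each. Bcl3, an atypical I-kappa-B protein, stood at 37.3 rebuilt FPKM with interferon-gamma and 5.21 untreated, Atf3 at 289 and 70.1 untreated, and Nfil3 at 20.0 and 9.19 untreated.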

How the data were processed

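Poly(A)-selected, strand-specific libraries were made from 18 samples, per the labels' protocols. Tools listed in the submitters' processing notes, without roles, are Cuffdiff 2.2.1, edgeR, featureCounts, STAR 2.5.3a and FastQC 0.11.5. The genome build is not given in the sources used here. Per the file headers the deposited table gives, for each pair of groups, the authors' fold change as a linear ratio, a total FPKM, and an adjusted p-value (q-value). The total is read here as the sum of both groups, which no header states. Of its 112230 rows, 77406 name a group outside the labelled samples and were not used. Assembly identifiers were removed from gene names, and entries with 0 or several names were left out of gene counts.

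The lower level is the total over (1 + fold), the higher is that times the fold, and levels of 1 entry and group were combined by the median (Python 3.11.15, pandas 2.3.3). A gene counts in 1 direction only where no called entry goes the other way. Depth per sample is unknown, so no interval can be given, and no test was run: calls are the authors'. Rebuilding and counting were tested on simulated data. Transcript types and 3′ UTRs come from GENCODE M21, upstream sequences from RefSeq GRCm38.p6. The search for 1 further upstream pattern is not reported here. Members, lists and the naming rule were chosen with earlier results of these data known. The text names all 9 members, list genes called between both treatments and interferon-gamma alone, otherwise up to 3 of the largest folds per list, and 3 genes most alike each member. Alternatives were a q of 0.01, a minimum of 1 FPKM, a pseudocount of 1 FPKM with 1.5-fold, rescaling to a median log2 ratio of 0, and leading entries only.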

Additional observations from a re-analysis of the deposited data

How the results depend on the processing

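The counts of members called higher and lower in 8 comparisons were recomputed under 5 alternatives. All counts stayed within 1.5 times except 1: with levels rescaled to a median log2 ratio of 0, 1 member in place of 2 was lower in construct than in parental cells with doxycycline, as Tnf went to a log2 ratio of -0.99. At a q of 0.01 or less, 3 members in place of 4 were higher in each of the interferon comparisons within construct cells other than both treatments against interferon-gamma alone, since Lif was lost; there all 7 remained. Rescaling shifted log2 ratios by 0.65 for interferon-gamma alone, by 1.02 for both treatments against doxycycline or untreated cells, and by 0.10 for both treatments against interferon-gamma alone. After it Il1rn was at 2.08 with interferon-gamma alone and at 3.49 with both treatments against doxycycline. In both treatments against interferon-gamma alone the rescaled log2 ratios ran from 1.09 for Il1rn to 2.93 for Il10. A pseudocount of 1 FPKM moved the low genes most: in that comparison Il10 went to a log2 ratio of 1.20 from 3.03, Il1b to 1.18 from 1.86 and Il6 to 1.07 from 1.53, and Lif went to 1.83 from 6.54 with interferon-gamma alone and to 1.74 from 6.03 with both treatments against doxycycline. No direction changed with it, and no call was lost at the 1.5-fold limit used with it. Tnf in construct against parental cells with doxycycline went to a log2 ratio of -0.97 from -1.02, under 2-fold. Setting the related lists against the median ratio was chosen after seeing the data. The shifts rest on genes listed because they were called somewhere, not on all expressed genes. Of those entries 52.5% had a log2 ratio above 0 for interferon-gamma alone. With both treatments 52.7% did against doxycycline, 53% against untreated cells and 57.1% against interferon-gamma alone. The shifts therefore do not measure a change shared by all genes. No paired analysis was possible because the table holds no values per sample, and for the same reason no replicate could be left out. Genes at 0 in a group, or below the table's limits, have no row, and depth cannot be read from the table.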
